A study of Mus musculus with 12 samples.

Results

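The Hox cluster genes are the homeobox genes of the 4 mouse clusters Hoxa, Hoxb, Hoxc and Hoxd. They were taken as every row of the deposited tables whose symbol is Hox, a cluster letter from a to d and a number, which gave 40 rows of 39 symbols among 54446 genes (Hoxd4 is listed under 2 gene identifiers). The 39 rows of 38 symbols that are described here are called the members. Of these, 10 belong to Hoxa, 10 to Hoxb, 9 to Hoxc and 10 to Hoxd. The study sequenced RNA of 12 ES cell samples (embryonic stem cells, the pluripotent cells of the early mouse embryo kept in culture). They come from 2 lines, each sampled before and 72 or 144 h after the start of mTOR inhibition (mTORi) with Ink128, which puts the cells into a dormant state. KH is the wild-type line and DNMT3ABKO lacks Dnmt3a and Dnmt3b, the enzymes that place DNA methylation de novo. Each of the 6 groups holds 2 replicates, the 0 h groups received no inhibitor, and no untreated culture at 72 or 144 h was analysed here, so time in culture and treatment cannot be told apart. Each genotype is represented by 1 line, so genotype and line cannot be told apart either. The labels write E14 before both line names, whereas the study's methods name the wild type KH2 and describe both lines as grown on feeders (growth-arrested fibroblasts), with viable single cells sorted before RNA extraction. The study says of its experiments in general that they were independently repeated, while the labels only number these replicates, so the p-values measure the spread between these samples.

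Hox genes encode homeodomain transcription factors that give cells their position along the head-to-tail axis. Within a cluster they lie in a row, and in the embryo the genes at the 3′ end (position 1, anterior) come on earlier and closer to the head than those at the 5′ end (position 13, posterior), an order called collinearity. ES cells hold the clusters under Polycomb repression, and retinoic acid, Wnt and FGF signals open them from the anterior end during differentiation. Fibroblasts, in contrast, keep central and posterior Hox genes on as a memory of the body region they came from.

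In the mm10 coordinates of the files the members span chr6:52162417-52260880 (Hoxa, positions 2 to 13), chr11:96194316-96368256 (Hoxb), chr15:102921103-103036852 (Hoxc, positions 4 to 13) and chr2:74668310-74765142 (Hoxd). RefSeq promoter sequences (GRCm38.p6), read here as the 250 bases before an annotated start, were at hand for 24 starts of 22 of the 38 symbols. These windows held a median of 12.5 CpG dinucleotides, the site that Dnmt3a and Dnmt3b methylate, with a range of 2 to 35, beside a median of 6 over 32851 windows of all genes. The composite Hox-Pbx motif TGATNNAT, searched on both strands, lay in 4 of the 24 windows (Hoxa2, Hoxb1, Hoxb8 and Hoxd11) and in 7.68% of all windows. The E-box CACGTG, searched in the same way, lay in 4 windows (Hoxd1, Hoxd10, Hoxd11 and Hoxd13) and in 6.02% of all windows. No overlap between matches of the 2 motifs was looked for, and a match is a run of letters and not a shown binding site. The 3 anterior promoters below belong to genes whose levels rose in KH cells at 144 h, and the Hoxd13 promoter belongs to a posterior gene whose level rose in DNMT3ABKO cells. The rises of Hoxa2 and Hoxa5 depended on settings and libraries, as given below. Hoxb8 and Hoxd11 also hold the Hox-Pbx motif, and no rise of either was called in KH cells at 144 h. Capitals mark a motif match, the Hox-Pbx motif in Hoxb1 (1 match, 162 bases before the start) and Hoxa2 (on the reverse strand, 111 bases before the start) and the E-box in Hoxd13 (229 bases before the start). All are written 5′ to 3′ on the gene's strand. The Hoxb1 window is chr11:96365508-96365757 on the plus strand with 7 CpG dinucleotides, and the Hoxa2 window is chr6:52164832-52165081 on the minus strand with 6. The Hoxa5 window is chr6:52204588-52204837 on the minus strand with 28, and the Hoxd13 window is chr2:74667975-74668224 on the plus strand with 31.
Hoxb1: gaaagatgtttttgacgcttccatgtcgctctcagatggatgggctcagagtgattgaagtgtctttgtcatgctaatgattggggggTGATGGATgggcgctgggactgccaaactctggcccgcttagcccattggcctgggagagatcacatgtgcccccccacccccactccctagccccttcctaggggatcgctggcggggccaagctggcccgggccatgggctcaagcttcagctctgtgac
Hoxa2: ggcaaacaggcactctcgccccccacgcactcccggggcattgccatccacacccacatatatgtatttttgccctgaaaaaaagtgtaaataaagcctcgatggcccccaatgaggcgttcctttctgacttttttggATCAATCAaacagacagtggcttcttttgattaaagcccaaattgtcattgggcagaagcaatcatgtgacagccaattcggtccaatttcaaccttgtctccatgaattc
Hoxa5: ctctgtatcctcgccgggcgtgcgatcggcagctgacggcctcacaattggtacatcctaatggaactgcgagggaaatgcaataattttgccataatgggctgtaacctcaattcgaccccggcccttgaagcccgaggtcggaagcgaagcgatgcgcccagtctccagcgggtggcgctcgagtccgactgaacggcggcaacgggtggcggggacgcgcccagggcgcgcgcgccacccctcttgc
Hoxd13: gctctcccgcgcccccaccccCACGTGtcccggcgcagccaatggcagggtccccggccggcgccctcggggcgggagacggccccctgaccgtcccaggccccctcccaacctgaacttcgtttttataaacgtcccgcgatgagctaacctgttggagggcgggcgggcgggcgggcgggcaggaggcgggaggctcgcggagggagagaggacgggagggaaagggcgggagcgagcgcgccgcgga

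The values are TPM, shares of each library's RNA corrected for transcript length, so they carry neither read depth nor the amount of RNA per cell. With spike-in scaling, the study reports that global transcription decreased under mTORi in both lines. A gene said here to rise or fall thus did so in its share of the RNA, and its change per cell may differ. Dnmt3a was at 54.7 to 144 TPM in the KH libraries and at 7.35 to 21.9 TPM in those of DNMT3ABKO, and Dnmt3b at 142 to 258 and 12.7 to 27.5 TPM, so both genes separated the lines as labelled. Between replicates the correlation of log2(TPM + 1) was 0.9935 to 0.9957 in 5 groups and 0.985 in untreated DNMT3ABKO cells. Markers of another cell type moved strongly with time. The 25 fibroblast markers, none of which was at 0 in any library, summed to 2393 and 2648 TPM in KH cells at 0 h, 843 and 825 at 72 h, then 157 and 153 at 144 h. In DNMT3ABKO cells they summed to 2628 and 2729, 700 and 629, and 180 and 172 TPM. Of the 10 ES cell markers tested, 9 rose in KH and 8 in DNMT3ABKO cells between 0 and 144 h. By the same limma calls, described below, 51.3% and 57.6% of all tested genes changed in either direction.

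Hox genes were expressed at low levels throughout. The highest value of any member in any library was 8.10 TPM, 20 of the 39 reached 1 TPM in some library, 7 never passed 0.5 TPM and 7 were listed at 0 in at least 1 library. All 39 together summed to 32.9 and 38.3 TPM in KH cells at 0 h, 25.7 and 27.9 at 72 h, then 26.7 and 25.9 at 144 h. The DNMT3ABKO sums were 35.6 and 41.0, 23.7 and 21.3, and 16.0 and 15.3 TPM. At 72 and 144 h the KH sums were thus above those of DNMT3ABKO, while at 0 h the values of the lines overlapped. By cluster, the member with the highest mean over all libraries was Hoxa7 (1.04 TPM), Hoxb9 (2.03), Hoxc6 (3.08) and Hoxd13 (1.90).

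**Figure D1:**
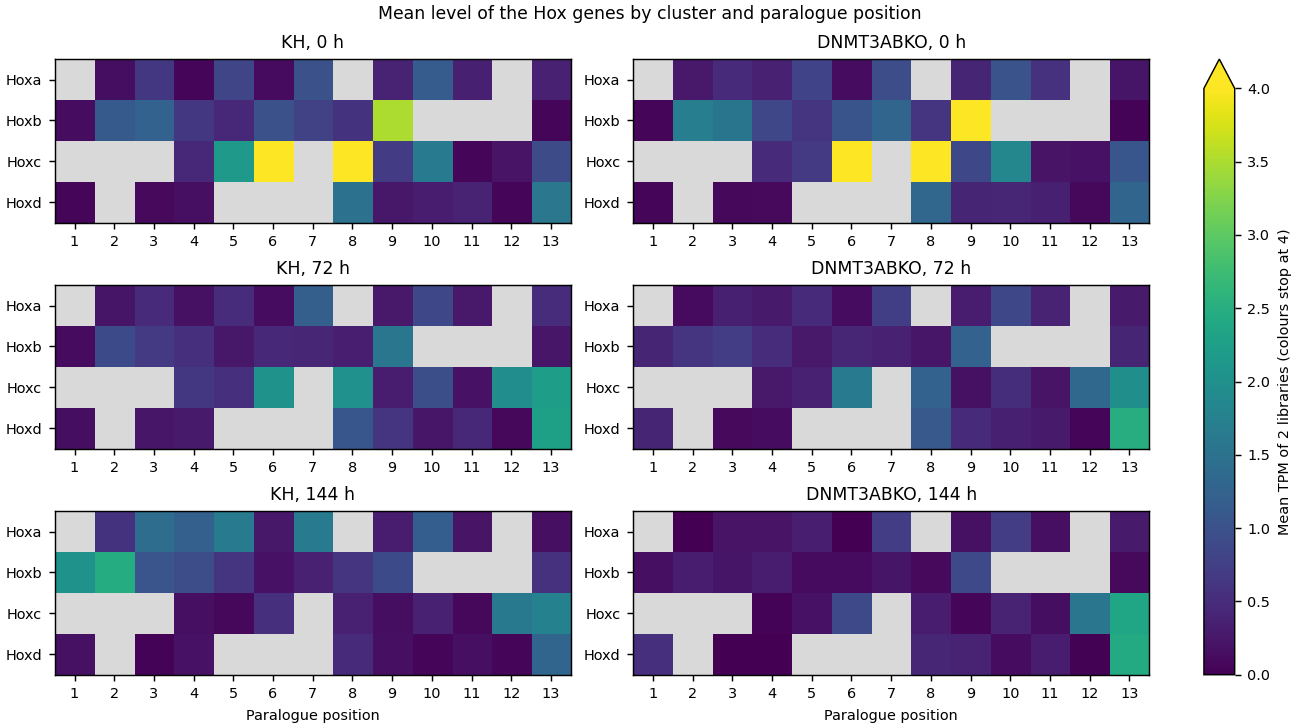
Mean TPM (colour, ending at 4) of each Hox gene by cluster (rows) and paralogue position (columns) in the 6 groups of 2 libraries; grey cells hold no value, and Hoxd4 shows its higher identifier. Hoxc6, Hoxc8 and Hoxb9 have the 3 highest levels at 0 h in both lines, and Hoxb1 and Hoxb2 are higher in KH cells at 144 h than in any other group.

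The 15727 genes whose mean over the 12 libraries reached 1 TPM were compared on the log2(TPM + 1) scale with limma. Calls were made where the p-value, adjusted over all of them by the Benjamini-Hochberg method, was under 0.05. A log2 fold change (log2FC) on this scale understates the change of a gene near or below 1 TPM. Only 8 Hox members passed the filter (Hoxa7, Hoxb2, Hoxb9, Hoxc6, Hoxc8, Hoxc12, Hoxc13 and Hoxd13), some of them through the groups in which they were high, so their counts support nothing by themselves. The other 31 were compared in the same fit without the filter, over 37364 genes above 0, and the values of every other Hox member below come from it. Adjusted p-values are limma's in both fits.

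The anterior genes Hoxa2 to Hoxa5 and Hoxb1 to Hoxb5 had their highest summed level in KH cells at 144 h. Summed over Hoxa2 to Hoxa5, KH cells held 1.95 and 1.42 TPM at 0 h, 1.503 and 1.31 at 72 h, then 4.92 and 4.92 at 144 h. The same sum in DNMT3ABKO cells was 1.52 and 2.37, 1.19 and 1.299, and 0.784 and 0.733 TPM. For Hoxb1 to Hoxb5 it was 3.274 and 3.996, 2.38 and 2.66, and 6.99 and 7.29 TPM in KH cells. In DNMT3ABKO cells the Hoxb1 to Hoxb5 sum was 5.03 and 4.52 TPM at 0 h, 2.83 and 2.20 at 72 h, then 1.25 and 1.02 at 144 h. In both clusters the 2 KH libraries at 144 h thus lay above the other 10. Positions 1 to 5 of Hoxc and Hoxd did not share this. Their mean sums in KH cells went from 2.61 TPM at 0 h to 0.247 at 144 h in Hoxc and from 0.458 to 0.445 in Hoxd. Without the filter, 0 of these 6 members rose and 2 fell in KH cells at 144 h (limma, 3 at an unadjusted p under 0.05). Over all genes 12.5% rose and 11.9% fell there.

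**Figure D2:**
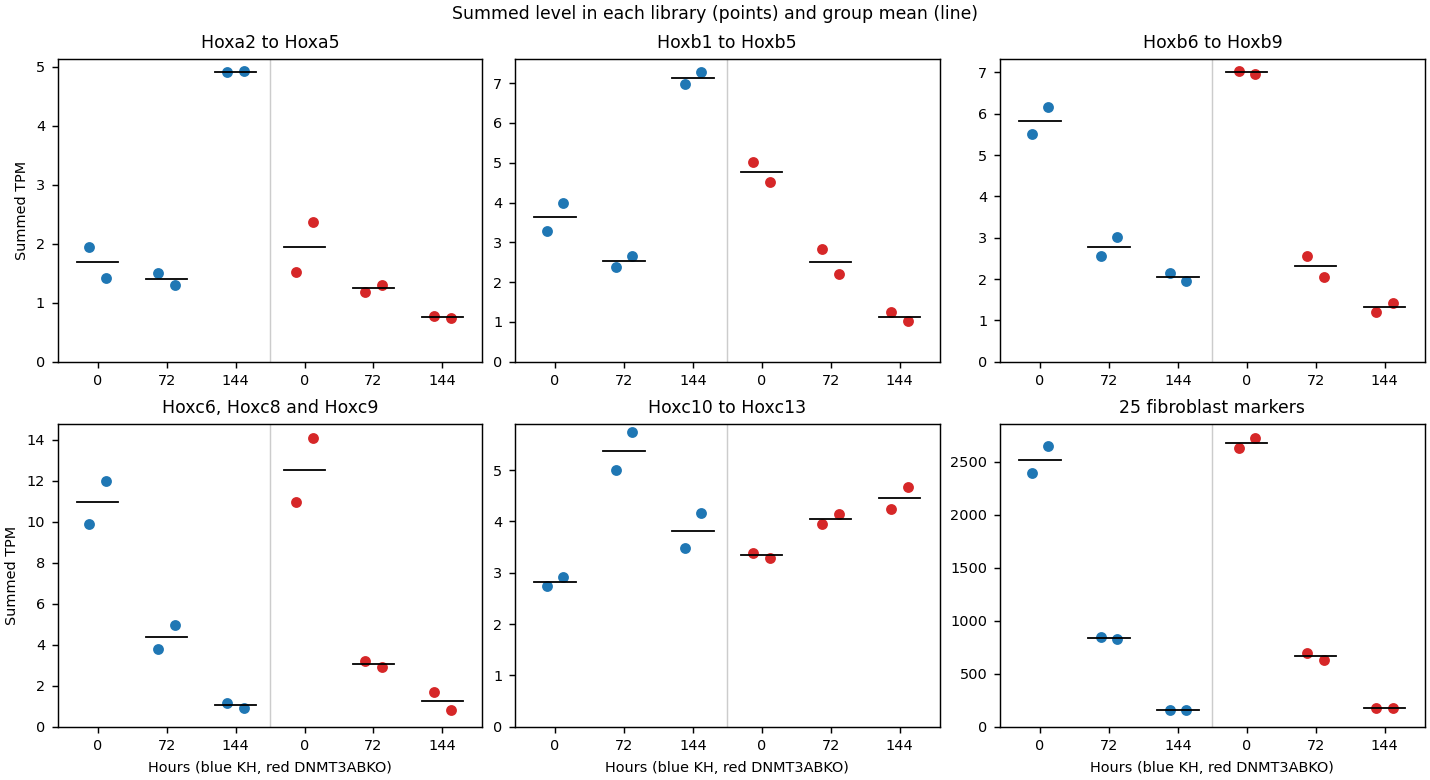
Summed TPM (vertical axes) of 6 gene groups in each library (points) at 0, 72 and 144 h (horizontal axes), with KH in blue, DNMT3ABKO in red and a short black line at each group mean of 2 libraries. The sums of Hoxa2 to Hoxa5 and Hoxb1 to Hoxb5 are highest in KH cells at 144 h, whereas those of Hoxb6 to Hoxb9, of Hoxc6, Hoxc8 and Hoxc9 and of the 25 fibroblast markers fall in both lines.

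Hoxb1 (ENSMUSG00000018973.2, chr11:96365752-96368256, plus strand) sets the identity of a hindbrain segment and maintains its own expression with Pbx cofactors. It had the largest KH increase at 144 h of the 9 anterior members, and its window is the one printed first above. KH libraries held 0.0542 and 0.209 TPM at 0 h, 0.0866 and 0.151 at 72 h, then 1.98 and 2.13 at 144 h. DNMT3ABKO libraries held 0.0895 and 0.0215, 0.398 and 0.420, and 0.229 and 0.0923 TPM. Hoxb1 rose in KH cells at 144 h (log2FC 1.44 ± 0.0851, SE, adjusted p = 2.72e-05). In DNMT3ABKO cells it rose at 72 h (0.42, adjusted p = 0.00871) and was at 0.14 relative to 0 h by 144 h (adjusted p = 0.298). The lines differed at 144 h by -1.40 (adjusted p = 2.62e-05) and in their 144 h response by -1.30 ± 0.120 (adjusted p = 0.000603).

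Hoxb2 (chr11:96350525-96354012), which acts in the hindbrain downstream of Hoxb1, moved in opposite directions in the lines. Its KH values were 0.945 and 1.31 TPM at 0 h, 0.684 and 1.13 at 72 h, then 2.06 and 2.89 at 144 h, and the 144 h pair exceeded every other library. Its DNMT3ABKO values were 1.79 and 1.64, 0.741 and 0.481, and 0.532 and 0.0894 TPM, with the 0 h pair above all later ones. Hoxb2 rose in KH cells at 144 h (log2FC 0.70 ± 0.199, SE, adjusted p = 0.0139) and fell in DNMT3ABKO cells at 72 h (-0.76, adjusted p = 0.00878) and 144 h (-1.07, adjusted p = 0.00109). The difference between these 144 h responses, -1.78 ± 0.281, was the largest of any Hox member (adjusted p = 0.0034). It was called under all 17 alternatives, whereas the KH rise was lost without KH 0 h replicate 1 or KH 144 h replicate 2 and with a pseudocount of 0.1 (adjusted p of up to 0.108).

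Of the anterior Hoxa genes, which pattern the hindbrain and neck, Hoxa4 was at 0.0352 and 0.0720 TPM in KH cells at 0 h, 0.156 and 0.212 at 72 h, then 0.911 and 1.55 at 144 h. In DNMT3ABKO cells Hoxa4 was at 0.319 and 0.427, 0.270 and 0.298, and 0.191 and 0.243 TPM. The KH increase (log2FC 1.07 ± 0.120, SE, adjusted p = 0.000558) had no counterpart that was called in DNMT3ABKO cells (-0.17, adjusted p = 0.351), and the responses differed by -1.24 (adjusted p = 0.00516). Hoxa3 was at 0.681 and 0.614 TPM in KH cells at 0 h and 1.504 and 1.36 at 144 h, against 0.429 and 0.552, then 0.250 and 0.162 in DNMT3ABKO cells. Its log2FC was 0.56 in KH (adjusted p = 0.00309) and -0.31 in DNMT3ABKO cells (adjusted p = 0.0368), so that Hoxa3, like Hoxb2, rose in one line and fell in the other. Hoxa5 stood at 1.67 and 1.66 TPM in KH cells at 144 h, above the 0.326 to 1.05 TPM of the DNMT3ABKO libraries and the 0.398 to 1.05 of earlier KH libraries. Its KH rise was 0.56 (adjusted p = 0.0378). Hoxa2 rose by 0.44 (adjusted p = 0.0423), with KH values of 0.830 and 0.339 TPM at 144 h and DNMT3ABKO values of 0 and 0.00176. Hoxa3 overlaps Hoxa4, Hoxa5 and Hoxa6 on the same strand, and the noncoding RNA Hoxaas3 overlaps Hoxa3, Hoxa4 and Hoxa5 on the other strand. Reads may thus be split between these genes in ways the values do not show, so Hoxa3, Hoxa4 and Hoxa5 may not be independent members. The KH calls of Hoxa5 and Hoxa2 were each kept in 4 of 16 refits (adjusted p of up to 0.189 and 0.296) and the DNMT3ABKO call of Hoxa3 in 9 of 16 (up to 0.161), while the difference in response was kept in all 16 for Hoxa3 and Hoxa4.

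**Figure D3:**
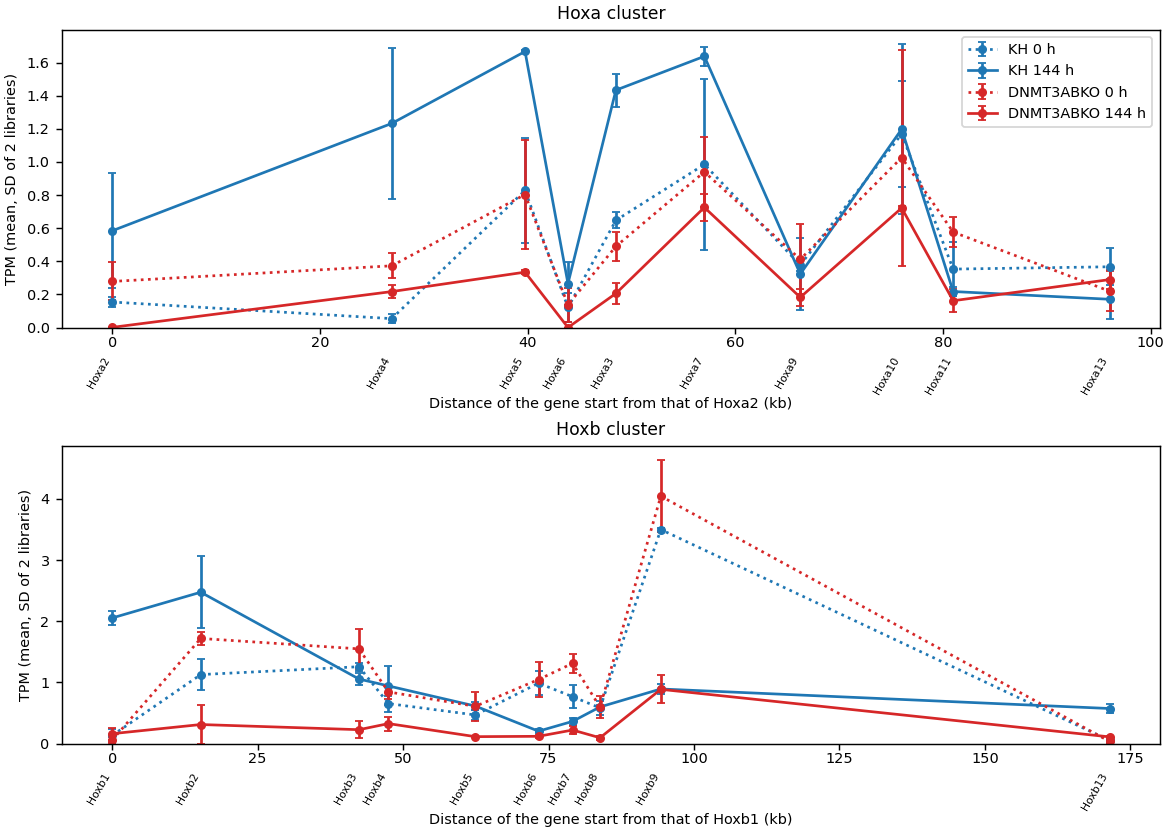
Mean TPM (vertical axes) with its SD over 2 libraries (bars) of each Hoxa gene (top) and Hoxb gene (bottom) against the distance in kilobases of its start from that of Hoxa2 or Hoxb1, with KH in blue, DNMT3ABKO in red, dotted lines for 0 h and solid lines for 144 h. The KH line at 144 h is highest over Hoxa2 to Hoxa7 and at Hoxb1, Hoxb2 and Hoxb13, and by smaller margins at Hoxa10, Hoxb4, Hoxb5 and Hoxb8. Hoxa3 is placed by its longest annotated transcript, beyond Hoxa6.

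Within Hoxb no change of the remaining anterior genes was called in KH cells between 0 and 144 h. Hoxb3 was at 1.30 and 1.21 TPM there at 0 h and 1.12 and 0.988 at 144 h, while in DNMT3ABKO cells it went from 1.78 and 1.31 to 0.128 and 0.325 TPM. Its log2FC was -0.14 in KH (adjusted p = 0.631) and -1.05 in DNMT3ABKO cells (adjusted p = 0.00116). The noncoding RNA Hoxb3os overlaps Hoxb2 and Hoxb3 on the other strand. For Hoxb4 and Hoxb5 the KH values were 0.22 (adjusted p = 0.289) and 0.14 (adjusted p = 0.445), and both fell in DNMT3ABKO cells, by 0.48 (adjusted p = 0.0264) and 0.52 (adjusted p = 0.00698) on the log2 scale. The Hoxb4 call was lost without DNMT3ABKO 0 h or 144 h replicate 1 and with the replicate block (adjusted p of up to 0.136 over 16 refits). Of the 9 anterior members Hoxa2 to Hoxa5 and Hoxb1 to Hoxb5, a group chosen with these results known, 6 rose in KH cells at 144 h (median log2FC 0.56), where 12.5% of all genes rose in the same fit, and 5 fell in DNMT3ABKO cells (median -0.42), where 13.2% of all genes fell. All 9 were lower in DNMT3ABKO than in KH cells at 144 h, by -0.54 to -1.42, as were 6.57% of all genes. The 144 h response was lower for 8, beside 1.76% of all genes, Hoxb4 being the exception (-0.70, adjusted p = 0.0776). These counts depended on single libraries. The 6 became 3 without KH 0 h replicate 2, KH 72 h replicate 1 or 2, KH 144 h replicate 1 or DNMT3ABKO 72 h replicate 1 or 2, the 9 became 5 without DNMT3ABKO 144 h replicate 1, and the 8 became 4 or 5 without any 1 library other than the DNMT3ABKO pair at 0 h. The calls at 144 h for Hoxb1 and Hoxa3 between the lines and for Hoxb1 in KH cells held with every library left out.

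**Figure D4:**
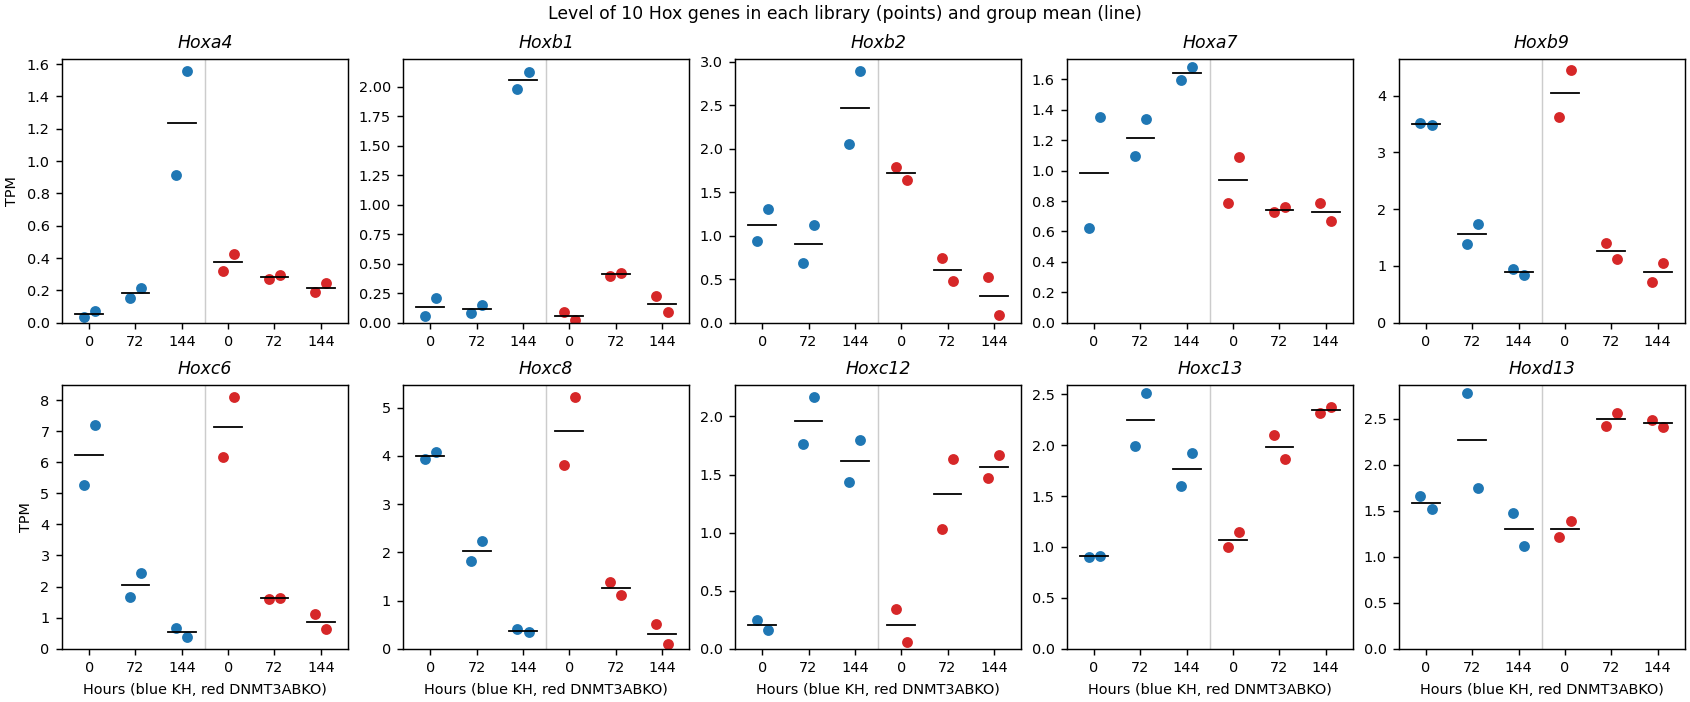
TPM (vertical axes, each with its own range) of Hoxa4, Hoxb1 and the 8 members in the filtered fit in each library (points) at 0, 72 and 144 h, with KH in blue, DNMT3ABKO in red and a short black line at each group mean of 2 libraries. Hoxa4, Hoxb1 and Hoxb2 are highest in the 2 KH libraries at 144 h, Hoxc6, Hoxc8 and Hoxb9 fall in both lines, and Hoxc12 and Hoxc13 rise in both.

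The neural markers Sox1 and Pax6 rose in KH cells at 144 h. Of the list of 11 markers of posterior epiblast, mesoderm and neural tube, 4 passed the filter, of which 3 rose and T, the posterior mesoderm factor, fell (log2FC -2.57, adjusted p = 1.2e-07) in KH cells at 144 h. Without the filter 3 of the 11 rose and 3 fell there (median log2FC 0.06), beside 12.5% and 11.9% of all genes. Sox1, an early neural marker, was at 0.492 and 0.521 TPM in KH cells at 0 h and 13.3 and 13.4 at 144 h, and in DNMT3ABKO cells at 0.478 and 0.599 and then 4.54 and 4.95. Pax6, a neural progenitor factor, went from 1.80 and 2.51 to 22.0 and 24.0 TPM in KH and from 6.84 and 10.1 to 14.3 and 15.2 in DNMT3ABKO cells. The response of both was weaker in DNMT3ABKO cells, by -1.35 for Sox1 (adjusted p = 0.0001) and -2.18 for Pax6 (adjusted p = 0.00021). For Pax6 this value includes the higher level of DNMT3ABKO cells at 0 h, not only the lower level at 144 h. Of the 11 markers without the filter, these 2 had a lower response by a called amount and 1 a higher one. Over all 11 markers the sums were 32.2 and 33.7 TPM at 0 h and 48.9 and 51.0 at 144 h in KH cells, and 18.0 and 24.0, then 26.6 and 28.1 in DNMT3ABKO cells. The lowest marker, Msgn1, was listed at 0 in some libraries. In bulk RNA fewer cells of a type and less RNA per cell cannot be told apart, and the part of such cells in the Hox levels was not tested.

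Of the central genes of Hoxb and Hoxc, positions 6 to 9, which pattern the trunk, Hoxc6, Hoxc8 and Hoxb9 were the 3 most expressed Hox genes at 0 h and fell in both lines. The sum of Hoxc6, Hoxc8 and Hoxc9 (Hoxc has no position 7) in KH cells was 9.903 and 11.996 TPM at 0 h, 3.79 and 4.98 at 72 h, then 1.17 and 0.919 at 144 h. In DNMT3ABKO cells it was 10.9 and 14.1, 3.18 and 2.92, and 1.67 and 0.808 TPM. The mean sum at 144 h was 9.55% of that at 0 h in KH cells and 9.91% in DNMT3ABKO cells. For the fibroblast markers, which fell at the same time, these shares were 6.16% and 6.58%, and at 72 h they were 33.1% and 24.8%, beside 40.1% and 24.4% for these Hoxc genes. The other clusters kept larger shares at positions 6 to 9. At 144 h these were 35.2% in KH and 18.8% in DNMT3ABKO cells for Hoxb. For Hoxd they were 37.0% and 47.9%, and for Hoxa 150% and 61.0%. Of the 23 fibroblast markers tested, 22 fell in each line at 144 h (51.3% of all genes were called in either direction in KH and 57.6% in DNMT3ABKO cells). Their part in the Hox result was not tested.

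Hoxc6 (chr15:102998257-103011881) had the highest level of any member. It was at 5.28 and 7.20 TPM in KH cells at 0 h, 1.66 and 2.44 at 72 h, then 0.672 and 0.393 at 144 h, and at 6.18 and 8.10, 1.62 and 1.64, and 1.11 and 0.643 in DNMT3ABKO cells. The 4 libraries at 0 h lay above the other 8. Its log2FC at 144 h was -2.23 ± 0.196 (SE, adjusted p = 1.08e-05) in KH and -2.12 (adjusted p = 9.48e-06) in DNMT3ABKO cells, and the difference of 0.11 ± 0.277 was not called (adjusted p = 0.847). Hoxc8 (chr15:102990607-102994111), needed for the thoracic skeleton and motor neurons, was at 3.93 and 4.08, 1.81 and 2.23, and 0.400 and 0.339 TPM in KH cells. The DNMT3ABKO libraries held 3.80 and 5.21, 1.39 and 1.11, and 0.510 and 0.0882. Its fall was -1.87 ± 0.176 in KH (adjusted p = 1.7e-05) and -2.09 in DNMT3ABKO cells (adjusted p = 4.81e-06), and in both lines it fell again from 72 to 144 h (-1.14, adjusted p = 0.00142, and -0.81, adjusted p = 0.00693).

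Hoxb9 (chr11:96271457-96276595), which acts in the rib cage, fell less than these Hoxc genes. Its KH values were 3.51 and 3.49 TPM at 0 h, 1.40 and 1.74 at 72 h, then 0.946 and 0.838 at 144 h, and its DNMT3ABKO values 3.63 and 4.46, 1.41 and 1.11, and 0.726 and 1.05. The log2FC at 144 h was -1.25 ± 0.135 (SE, adjusted p = 4.42e-05) in KH and -1.42 (adjusted p = 1.18e-05) in DNMT3ABKO cells. Among the lower members of the group, Hoxc9 fell from 0.693 and 0.711 to 0.0999 and 0.188 TPM in KH cells (-0.57, adjusted p = 0.000287) and from 0.952 and 0.787 to 0.0572 and 0.0767 in DNMT3ABKO cells (-0.81, adjusted p = 2.79e-05). Hoxb6 and Hoxb7 fell in both lines as well, by 0.72 (adjusted p = 0.00773) and 0.37 (adjusted p = 0.0318) on the log2 scale in KH and by 0.87 (adjusted p = 0.00241) and 0.92 (adjusted p = 0.00031) in DNMT3ABKO cells. Hoxb8 was called in DNMT3ABKO cells alone. It was at 0.506 and 0.659 TPM in KH cells at 0 h and 0.578 and 0.618 at 144 h (log2FC 0.02, adjusted p = 1), and went from 0.725 and 0.466 to 0.114 and 0.0739 in DNMT3ABKO cells (-0.54, adjusted p = 0.00172), with a difference of -0.56 (adjusted p = 0.0346) that was kept in 5 of 16 refits (adjusted p of up to 0.13). The KH call of Hoxb7 was kept in 8 of 16 refits (adjusted p of up to 0.157), being lost without KH 0 h replicate 2 or any KH library at 72 or 144 h and with the replicate block, and that of Hoxb6 was lost without KH 0 h replicate 2. In all, 6 of the 7 members fell in KH and 7 of 7 in DNMT3ABKO cells at 144 h, beside 11.9% and 13.2% of all genes, again for a group chosen with results known. The KH count was 4 at the lowest when 1 library was left out.

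The neighbours of this group in Hoxc moved with it. Hoxc10 was at 1.49 and 1.81 TPM in KH cells at 0 h and 0.374 and 0.352 at 144 h (log2FC -0.96, adjusted p = 0.000512), and fell by 1.03 on the log2 scale in DNMT3ABKO cells (adjusted p = 0.000218). Hoxc5 differed between the lines before treatment, at 1.78 and 2.51 TPM in KH against 0.656 and 0.712 in DNMT3ABKO cells (-0.89, adjusted p = 0.0198). This call was kept in 11 of 16 refits (adjusted p of up to 0.386) and was lost without KH 0 h replicate 2 or DNMT3ABKO 0 h replicate 1, with the replicate block, with a pseudocount of 0.1 and with only the groups compared. It fell by 1.53 on the log2 scale in KH (adjusted p = 0.000287) and by 0.50 in DNMT3ABKO cells at 144 h (adjusted p = 0.0388), a call kept in 6 of 16 refits (adjusted p of up to 0.182) and lost without any 1 DNMT3ABKO library or either KH library at 144 h. Its responses differed by 1.03 (adjusted p = 0.0319), the opposite sign to Hoxa2 to Hoxa5 and Hoxb1 to Hoxb5, a call kept in 4 of 16 refits. Hoxc5 overlaps Hoxc6, Hoxc8, Hoxc9 and Hoxc10 on the same strand, so reads may be split between these genes in ways the tables do not show. Hoxc4 fell to 0.154 and 0.170 TPM in KH (-0.33, adjusted p = 0.019) and 0 and 0.0786 in DNMT3ABKO cells (-0.52, adjusted p = 0.0018), and its KH call was lost without KH 0 h replicate 2 or either KH library at 144 h (adjusted p of up to 0.142 over 16 refits).

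The posterior end of Hoxc went the other way. Hoxc12 (chr15:102936757-102938609) was at 0.245 and 0.164 TPM in KH cells at 0 h, 1.76 and 2.17 at 72 h, then 1.43 and 1.80 at 144 h. In DNMT3ABKO cells it was at 0.339 and 0.0615, 1.03 and 1.63, and 1.47 and 1.67. All 8 treated libraries lay above the 4 untreated ones, and Hoxc12 rose at 72 h by 1.30 ± 0.165 (SE, adjusted p = 0.000178) in KH and 0.95 (adjusted p = 0.000817) in DNMT3ABKO cells, and at 144 h by 1.12 (adjusted p = 0.000331) and 1.11 (adjusted p = 0.000268). Hoxc13 (chr15:102921103-102928814), a regulator of hair and nail formation next to Hoxc12, was at 0.904 and 0.914, 1.99 and 2.51, and 1.60 and 1.92 TPM in KH cells. Its DNMT3ABKO values were 1.00 and 1.14, 2.10 and 1.87, and 2.31 and 2.37. Its log2FC at 144 h was 0.53 ± 0.118 (SE, adjusted p = 0.00386) and 0.69 (adjusted p = 0.000632), again with every treated library above every untreated one. For neither gene was a difference between the lines called at any time.

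Hoxd13 (chr2:74668310-74671599), the most posterior Hoxd gene, which shapes digits and genitalia, rose in DNMT3ABKO cells. It was at 1.22 and 1.39 TPM there at 0 h, 2.42 and 2.57 at 72 h, then 2.49 and 2.41 at 144 h, whereas KH cells held 1.66 and 1.52, 2.79 and 1.75, and 1.48 and 1.12. The DNMT3ABKO increase was 0.60 ± 0.151 (SE, adjusted p = 0.00712) at 72 h and 0.58 (adjusted p = 0.00769) at 144 h, and the KH values were 0.32 (adjusted p = 0.11) and -0.18 (adjusted p = 0.358). At 144 h the lines differed by 0.59 (adjusted p = 0.0167, but up to 0.119 without KH 144 h replicate 2 or either DNMT3ABKO replicate of that time), while the difference between the responses, 0.76 ± 0.214, was not called (adjusted p = 0.0579). Hoxb13, a posterior gene far from the rest of its cluster, rose in KH cells from 0.0205 and 0.0784 TPM at 0 h to 0.624 and 0.521 at 144 h (0.58, adjusted p = 0.00135). In DNMT3ABKO cells it rose at 72 h (0.45, adjusted p = 0.00441) and was back at 0.114 and 0.103 TPM by 144 h.

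**Figure D5:**
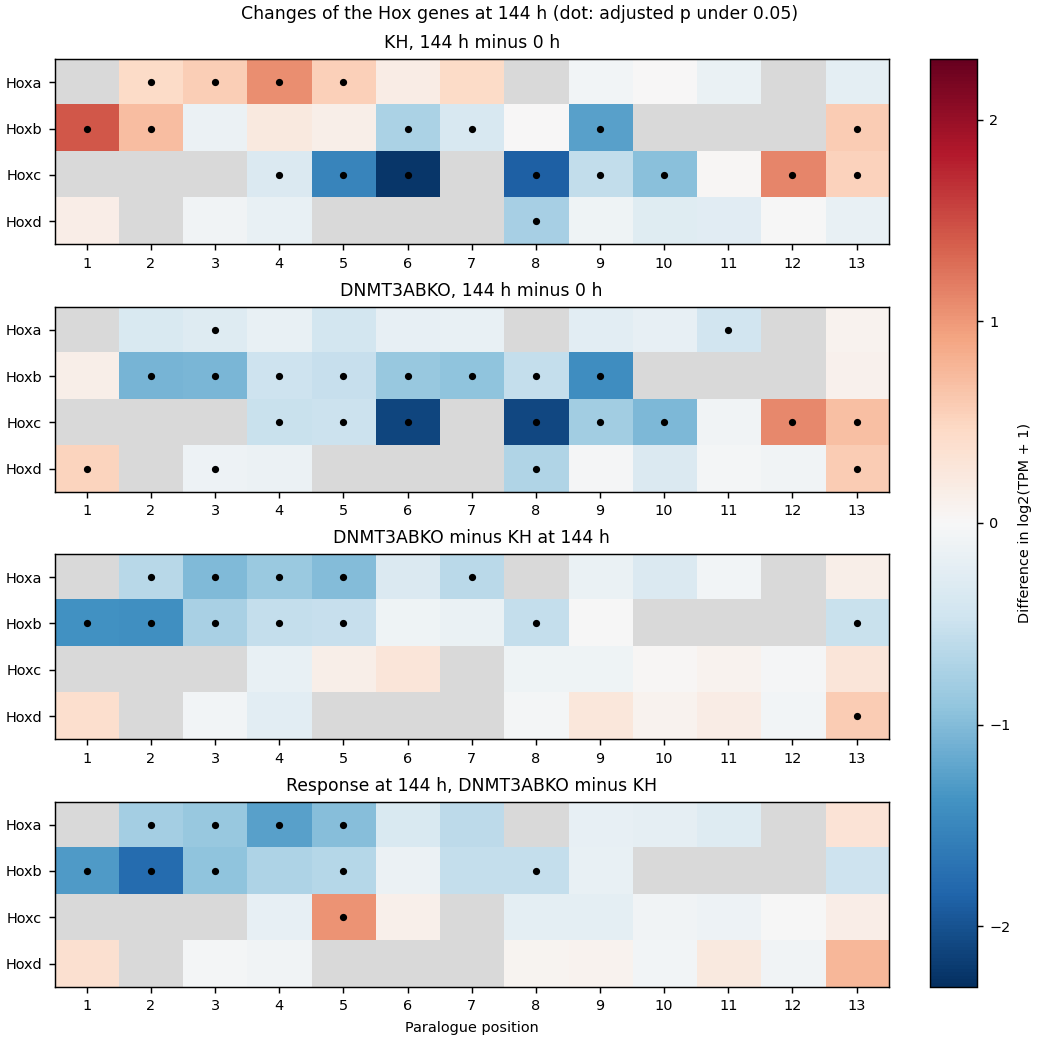
Difference in log2(TPM + 1) (colour) of each Hox gene by cluster (rows) and paralogue position (columns), in 4 panels for 144 h minus 0 h in KH and in DNMT3ABKO cells, DNMT3ABKO minus KH at 144 h, and the 144 h response of DNMT3ABKO minus that of KH; grey cells hold no value. A dot marks a call by limma, from the filtered fit for the 8 members in it and from the unfiltered fit for the other 31, and the dots at positions 2 to 5 of Hoxa lie on increases in KH cells and on lower levels in DNMT3ABKO than in KH cells at 144 h.

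Of the remaining members, Hoxa7 (chr6:52214491-52221854, minus strand) was at 0.621 and 1.35 TPM in KH cells at 0 h, 1.10 and 1.34 at 72 h, then 1.60 and 1.68 at 144 h, and at 0.790 and 1.09, 0.725 and 0.763, and 0.785 and 0.666 in DNMT3ABKO cells. It was lower in DNMT3ABKO cells at 144 h (-0.61 ± 0.168, SE, adjusted p = 0.0231), and its KH response of 0.43 was not called (adjusted p = 0.0528). The difference between the lines was lost without any 1 of the 4 libraries at 144 h (adjusted p of up to 0.115). Of the 6 Hoxa members from position 6 to 13, none was called in KH cells at 144 h by limma without the filter (1 at an unadjusted p under 0.05), and Hoxa11 fell in DNMT3ABKO cells (-0.44, adjusted p = 0.011). Hoxa6 was listed at 0 in both DNMT3ABKO libraries at 144 h. In Hoxd, Hoxd8 fell from 1.504 and 1.504 TPM to 0.520 and 0.443 in KH cells (-0.76, adjusted p = 0.011) and from 1.41 and 1.22 to 0.375 and 0.489 in DNMT3ABKO cells (-0.69, adjusted p = 0.0128). Hoxd1, at the anterior end, rose in DNMT3ABKO cells from 0 and 0.153 to 0.659 and 0.432 TPM (0.52, adjusted p = 0.0163), with 0.10005 and 0.0234, then 0.151 and 0.223 in KH cells. These calls of Hoxa11, Hoxd1 and, in each line, Hoxd8 were each kept in 13 of 16 refits (adjusted p of up to 0.0743, 0.123 and 0.0701), and each was lost without some libraries of its own line at 0 or 144 h. Hoxc11, Hoxd3 and Hoxd9 were called in some comparisons at levels of at most 0.238, 0.268 and 0.655 TPM. Hoxd9 rose in KH cells at 72 h, a call kept in 6 of 16 refits. It fell again from 72 to 144 h, a call kept in 12 of 16.

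The counts of called members are given with the share of all tested genes called in the same comparison. In KH cells 5 of the 8 filtered members were called at 72 h (47.8% of all genes) and 6 at 144 h (51.3%), and 5 were called between 72 and 144 h (22.9%). In DNMT3ABKO cells 7 were called at 72 h (56.0%) and 7 at 144 h (57.6%), and 1 between these times (27.3%). Without the filter, 5 of 39 members (12.8%) rose and 6 (15.4%) fell in KH cells at 72 h, where 11.4% and 8.57% of all genes did. At 144 h 9 rose (23.1%) and 10 fell (25.6%), beside 12.5% and 11.9% of all genes, and from 72 to 144 h 6 rose (15.4%) and 7 fell (17.9%), beside 2.95% and 6.05%. In DNMT3ABKO cells 5 rose (12.8%) and 10 fell (25.6%) at 72 h, beside 16.5% and 10.3% of all genes. At 144 h 4 rose (10.3%) and 18 fell (46.2%), beside 17.2% and 13.2%, and from 72 to 144 h 0 rose (limma, 12 members at an unadjusted p under 0.05 in either direction) and 4 fell (10.3%), beside 5.80% and 7.94%. The median over all 39 members at 144 h was -0.07 in KH and -0.31 in DNMT3ABKO cells.

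Between the lines, limma called 0 of the 8 members at 0 h (9.06% of all genes), with 0 at an unadjusted p under 0.05. It called 0 at 72 h (19.3% of all genes), with 1 at an unadjusted p under 0.05, and 3 at 144 h (26.5%), of which Hoxa7 and Hoxb2 were lower and Hoxd13 higher in DNMT3ABKO cells. The 3 calls at 144 h became 1 without KH replicate 2 or either DNMT3ABKO replicate of that time. Without the filter 1 of 39 members was higher and 1 lower in DNMT3ABKO cells at 0 h (2.17% and 1.57% of all genes), and 0 higher (limma, 7 at an unadjusted p under 0.05 in either direction) and 2 lower at 72 h (5.44% and 3.81%). At 144 h 1 was higher (2.56%) and 11 lower (28.2%), beside 7.68% and 6.57% of all genes. The 72 h response differed by limma for 0 members with the filter (5.23% of all genes, 0 members at an unadjusted p under 0.05) and for 0 without it (1.58% higher and 0.677% lower over all genes, 8 members at an unadjusted p under 0.05). The 144 h response differed for 1 filtered member (Hoxb2, with 8.59% of all genes), and for 2 when KH 0 h replicate 2, KH 72 h replicate 1 or 2 or DNMT3ABKO 0 h replicate 2 was left out. Without the filter it was higher in DNMT3ABKO cells for 1 member (2.56%) and lower for 9 (23.1%), beside 3.86% and 1.76% of all genes.

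Noncoding RNAs inside the clusters were mostly low. Of 13 such RNAs and Evx genes, 2 passed the filter. At 144 h 2 rose in KH and 1 in DNMT3ABKO cells, where 51.3% and 57.6% of all genes were called in either direction. Between the lines, 1 of the 2 was lower in DNMT3ABKO cells at 144 h (26.5% of all genes differed). The 144 h response was lower for 1 (8.59% of all genes differed). Both of these lower calls belong to the gene other than Halr1, which is described next. Whether that gene shares reads with Hox members was not tested. Halr1, a noncoding RNA beyond the anterior end of Hoxa, went from 20.2 and 22.8 to 151 and 162 TPM in KH and from 17.4 and 15.2 to 152 and 161 in DNMT3ABKO cells. Its increases of 2.81 (adjusted p = 1.02e-08) and 3.19 (adjusted p = 3.3e-09) were the largest of any gene listed in or beside the clusters, and the lines did not differ by a called amount at 144 h. Of the 15 protein-coding genes flanking the clusters, 12 passed the filter. In KH cells 2 rose and 6 fell at 144 h, and in DNMT3ABKO cells 4 rose and 6 fell (51.3% and 57.6% of all genes were called), the largest change being the fall of Calcoco2, an autophagy receptor beside Hoxb, from 70.9 and 78.0 to 4.67 and 3.90 TPM in KH cells (-3.84, adjusted p = 1.3e-08).

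Some Hox cofactors of the TALE homeobox class, which bind DNA together with Hox proteins, differed between the lines. The 8 described here passed the filter, and at 144 h 4 were lower in DNMT3ABKO than in KH cells, where 26.5% of all genes differed. The 144 h response differed for 2, Meis2 and Pknox2, beside 8.59% of all genes. Meis2 was at 2.12 and 2.97 TPM in KH cells at 0 h, 4.64 and 4.60 at 72 h, then 12.3 and 11.9 at 144 h, and at 1.79 and 2.65, 3.58 and 3.21, and 1.82 and 2.25 in DNMT3ABKO cells. It rose in KH cells by 1.89 (adjusted p = 6.36e-06), and the 144 h responses differed by -1.97 (adjusted p = 0.000265). Pknox2 rose in KH cells (0.43, adjusted p = 0.0054) and fell in DNMT3ABKO cells (-0.39, adjusted p = 0.008), with a difference of -0.81 (adjusted p = 0.00631). In all, 2 cofactors rose and 1 fell in KH cells at 144 h, and 1 rose and 3 fell in DNMT3ABKO cells (51.3% and 57.6% of all genes were called).

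Among 15 genes that act upstream of the Hox clusters, 9 passed the filter, and 4 rose and 3 fell in KH cells at 144 h, with 4 and 4 in DNMT3ABKO cells. In these comparisons 51.3% and 57.6% of all genes were called in either direction. The retinoic acid receptors Rara and Rarg rose in both lines, Rarg by 1.11 in KH and 1.56 in DNMT3ABKO cells. Cyp26a1, which degrades retinoic acid, was at 3.44 and 4.40 TPM in KH cells at 0 h and 0.476 and 0.320 at 144 h, and at 1.08 and 1.47, then 0.668 and 0.750 in DNMT3ABKO cells. Its responses differed by 1.40 (adjusted p = 0.00146). Aldh1a2, which makes retinoic acid, went from 1.69 and 1.29 to 2.23 and 2.23 TPM in KH and from 1.46 and 1.97 to 6.08 and 6.11 in DNMT3ABKO cells. Its responses differed by 1.02 (adjusted p = 0.00544). The part of retinoic acid in the Hox levels was not tested. In all, 5 of these 9 genes differed in their 144 h response (8.59% of all genes did), each higher in DNMT3ABKO cells. Of the 18 chromatin regulators of the clusters, 12 rose in KH and 13 in DNMT3ABKO cells at 144 h, in comparisons in which 51.3% and 57.6% of all genes were called in either direction. They included both the activator Kmt2a (1.12, adjusted p = 3.09e-05, and 0.76, adjusted p = 0.0003) and the Polycomb member Phc1 (0.90, adjusted p = 6.1e-06, and 1.10, adjusted p = 8.4e-07). By limma, 0 of the 18 differed between the lines in the 144 h response, with 2 at an unadjusted p under 0.05 (1 without the filter).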

How the data were processed

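Per the labels, the submitters' processing notes and the study's methods, the authors added ERCC spike-in RNA, removed ribosomal RNA, trimmed reads with cutadapt 2.4, aligned them to mm10 with STAR and quantified GENCODE genes with StringTie. The submitters' processing notes give STAR 2.7.3a and StringTie 2.0, and the study's methods name other versions of both. They deposited 1 table per library, whose values are TPM (transcript abundance scaled to the same total in each library). TPM keeps no read depth, and no spike-in rows were listed, so depth is unknown, no counting interval is given and a change in total RNA per cell was not analysed here. The StringTie parameters in the study's methods name no strand option.

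Here log2(TPM + 1) was fitted with limma 3.58.1 (lmFit, eBayes with trend, R 4.3.3) with 1 coefficient for each of the 6 groups and 11 contrasts, over genes with a mean of 1 TPM or more or, as an alternative, over all genes above 0. All p-values are two-sided. Tables and figures were made with Python 3.11.15, pandas 2.3.3, NumPy 2.4.6 and matplotlib 3.10.9, and the fit was tested on simulated data. The members and gene lists were chosen with earlier results of these data known. Named members are the 8 that were called in the filtered fit, given in full, and other members whose values the text turns on, chosen after they were seen. From the other lists, up to 3 called genes per direction and contrast are named, plus genes that adjoin the clusters. A member and a cofactor are not reported here and are in no count, sum or plot of members or lists. Same-numbered replicates correlated at -0.104 to 0.0996 in their deviations from the group means over 6 pairs of groups within a line, and at -0.104 to 0.336 over all 15 pairs of groups, of which 2 were over 0.1, so they were not treated as pairs. The study's reporting summary says that time points of a replicate were handled side by side, without tying this to the numbers. The alternatives were a pseudocount of 0.1, no filter, median-ratio scaling, only the groups compared, a replicate block, a minimum log2 fold change of 1, and fits that leave 1 library out.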

Additional observations from a re-analysis of the deposited data

Results flagged for a closer look

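The 144 h response to mTORi differed between DNMT3ABKO and KH cells, by limma's test of the difference itself at an adjusted p under 0.05, for 10 Hox members. The difference (DNMT3ABKO minus KH log2 fold change) was negative for 9 of them. It was -1.78 for Hoxb2 in the filtered fit. In the fit without the filter it was -1.30 for Hoxb1, -1.24 for Hoxa4, -0.98 for Hoxa5, -0.92 for Hoxb3, -0.87 for Hoxa3, -0.79 for Hoxa2, -0.66 for Hoxb5 and -0.56 for Hoxb8. For Hoxc5 it was 1.03, and this gene overlaps 4 other Hoxc genes and already differed between the lines at 0 h. Hoxa3 likewise overlaps Hoxa4, Hoxa5 and Hoxa6 on the same strand, so reads may be split between them. Over 16 refits the difference was kept in 16 for Hoxa3 and Hoxa4, 15 for Hoxb1, 5 for Hoxb8, 4 for Hoxa2 and Hoxc5, 3 for Hoxa5 and Hoxb5 and 1 for Hoxb3, and over 17 refits it was kept in 17 for Hoxb2. Most of these members stood near or under 1 TPM outside the KH libraries at 144 h. Of the 11 markers of posterior epiblast, mesoderm and neural tube, Sox1 and Pax6 differed in the same direction and 1 in the other without the filter, and their part in the Hox differences was not tested. Pax6 was already higher in DNMT3ABKO than in KH cells at 0 h. The groups hold 2 replicates each, too few to look for a single outlying library.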

How the results depend on the processing

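Of the 35 called values of filtered members, 167 of 175 recalculations under the alternatives other than leaving out a library kept the call, and 8 lost it. Of the 78 called values from the fit without the filter, 219 of 312 kept it and 93 lost it. No called value changed direction. Without the filter, the number of members called was 11 in KH cells at 72 h, 19 at 144 h and 13 from 72 to 144 h, and 15, 22 and 4 in DNMT3ABKO cells. Between the lines it was 2 at 0 h, 2 at 72 h and 12 at 144 h, and 10 for the difference in the 144 h response. These fits test 39 members rather than 8. With a minimum log2 fold change of 1 the counts became 2 for KH cells at 72 h, 1 from 72 to 144 h, 3 for DNMT3ABKO cells at 72 h, 0 from 72 to 144 h, and between the lines 1 at 144 h. Median-ratio scaling moved the median of all genes by over 0.1 in one contrast, DNMT3ABKO at 72 h against 0 h (by -0.11 on the log2 scale, from 0.12), and moved the count for the difference in the 144 h response from 1 to 2. The cause was not tested.

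For Hoxa2 to Hoxa5 and Hoxb1 to Hoxb5, the 6 members higher in KH cells at 144 h became 1 with the filter, 2 with the minimum fold change and 1 with only the groups compared. The 9 lower in DNMT3ABKO than in KH cells at 144 h became 1, 3 and 4 under these alternatives. The 8 with a lower 144 h response became 1, 3 and 3, and 4 with the pseudocount of 0.1 TPM. For positions 6 to 9 of Hoxb and Hoxc, the 6 lower in KH cells became 3 with the filter and 3 with the minimum fold change, and the 7 lower in DNMT3ABKO cells became 3, 3 and, with only the groups compared, 4. The filter removes most of these members by construction, and the cause of the other changes was not tested.

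With the replicate number as a block, the count for the difference in the 144 h response became 2 and the 8 anterior members with a lower 144 h response became 4, and no other count moved by over 1.5 times. The labels do not say that the numbers pair the libraries. Same-numbered libraries correlated over 0.1 in 2 of 15 pairs of groups, at 0.336 for the lines at 0 h and 0.135 for KH at 0 h with DNMT3ABKO at 144 h.

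Leaving out each library in turn gave 4 to 6 members called in KH cells at 72 h, 5 to 7 at 144 h and 2 to 5 from 72 to 144 h (2 without KH 72 h replicate 1 or KH 144 h replicate 2, and 3 without KH 0 h replicate 1 or 2, KH 72 h replicate 2, KH 144 h replicate 1 or DNMT3ABKO 72 h replicate 1 or 2). For DNMT3ABKO cells it gave 6 to 7, 7 and 0 to 1 (0 without DNMT3ABKO 72 h replicate 1 or 144 h replicate 2). Between the lines the counts were 0 at 0 h, 0 at 72 h, 1 to 3 at 144 h and 1 to 2 for the difference in the 144 h response. For the anterior members they were 3 to 5 higher in KH cells at 144 h, 5 to 9 lower between the lines and 4 to 6 for the lower 144 h response, and for positions 6 to 9 they were 4 to 6 lower in KH and 7 in DNMT3ABKO cells. Over these refits the calls at 144 h for Hoxc6, Hoxc8, Hoxb9, Hoxc12 and Hoxc13 within each line held in each one. The lone replicate of a group is assumed there to vary like the other groups. With values near 1 TPM and unknown depth, the counting error of the low members could not be given.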
